A study of Phyllotreta striolata with 15 samples.

Results

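Pupae and eggs of the striped flea beetle, Phyllotreta striolata, were compared by RNA sequencing of whole bodies. These are the stages in which the animal does not feed and in which a body is built, first the embryo and later the adult. The comparison takes 6 of the 15 libraries of the series, 3 of pupae and 3 of eggs, chosen by the stage in the sample titles and not by any measured value. The other 9 libraries, 3 each of larvae, male adults and female adults, entered the model that estimates the spread and were used to see where else the differing genes were found. No label names a strain, a treatment or an age within a stage, and neither the animals pooled in a library nor the sex of the pupae is stated there. No egg or pupal stage could be checked against marker genes, because no gene names come with the identifiers in the tables.

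As background, an insect egg is laid with a store of maternal messenger RNA, made in the ovary, on which the early embryo runs before its own genome takes over. A beetle pupa breaks down much of the larval body, builds wings, legs, muscles, sense organs and gonads of the adult, and secretes the adult cuticle. In bulk RNA from whole bodies, fewer cells of a type and less RNA per cell cannot be told apart.

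Egg libraries held 23135342 to 26690102 counts and pupal libraries 29280435 to 32598781. Each library was counted as 1 sample, since gene counts of replicates disagreed well beyond counting error (chi-square over its degrees of freedom, 99.4 to 227). Replicates are described as biological, without saying whether animals were collected separately, and the p-values therefore speak of the spread of these libraries, part of which may be technical. Columns of pupae start with SY and those of eggs with YH, 2 prefixes of unstated meaning whose effect and that of stage cannot be told apart. Columns of larvae and of both adult sexes all start with XSDC, so comparisons of pupae or eggs with them meet the same limit. Tests between the adult sexes and between larvae and adults lie within that prefix. Egg replicate 2 stood apart from the other egg libraries, with Spearman's rho across genes of 0.936 and 0.948 against 0.966 between egg replicates 1 and 3, while pupal pairs ranged from 0.979 to 0.986.

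More genes were found in pupae than in eggs. A level of 1 CPM (counts scaled to a common library total) or more was reached by 10207, 10286 and 10295 genes in pupae and by 8512, 8992 and 8307 genes in eggs. The groups did not overlap, with means of 10263 ± 48.4 and 8604 ± 352 genes (SD, n = 3; two-sided exact permutation test p = 0.1, the smallest that 3 against 3 can give). For the most abundant genes no such gap was seen. The top 100 genes of each library held 25.1 ± 2.08% of counts in pupae and 24.6 ± 2.55% in eggs (SD, n = 3; exact permutation p = 0.7).

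Most genes differed between the stages. Of 11440 genes tested, 6836 (59.8%) were called different. Among them 3966 were called higher in pupae, 34.7% of those tested, and 2870 higher in eggs, 25.1% (edgeR's quasi-likelihood test, Benjamini-Hochberg adjusted p under 0.05 and at least 2-fold). CPM in gene values here and below is on the TMM scale, which sets libraries to a common level through genes of middling change. The median log2 change of all genes was 0.30 on that scale and -0.04 with library size alone, so changes near 2-fold have no firm count on either side. Scaling by library size alone gave 3426 calls towards pupae and 3571 towards eggs, which turns the order of these counts. Taken relative to the median of all genes, the counts were 3741 and 3354. Library values of pupae and eggs did not overlap for 3932 of the genes called higher in pupae and 2816 of those called higher in eggs. Over all genes tested, 44.3% had pupal values wholly above those of eggs and 34.4% had egg values wholly above those of pupae.

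The sides differed in how far genes moved. Genes higher in pupae had a median log2 change of 3.94, or 3.85 with genes absent from eggs set at their lower bound, and genes higher in eggs had one of -1.88 by both computations. A change of at least 8-fold was called for 2528 genes towards pupae, 22.1% of those tested, and for 497 towards eggs, 4.34%. A change of at least 32-fold was called for 1502 genes towards pupae, 13.1%, and for 124 towards eggs, 1.08%. These folds are fitted values. Of the 1502 genes, 279 had no count in any egg library, and 1426 of the 1502 were still past 32-fold with such genes at their bound. Under library size alone, 8-fold changes numbered 2236 towards pupae and 680 towards eggs, so this order did not turn with the scaling.

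**Figure D1:**
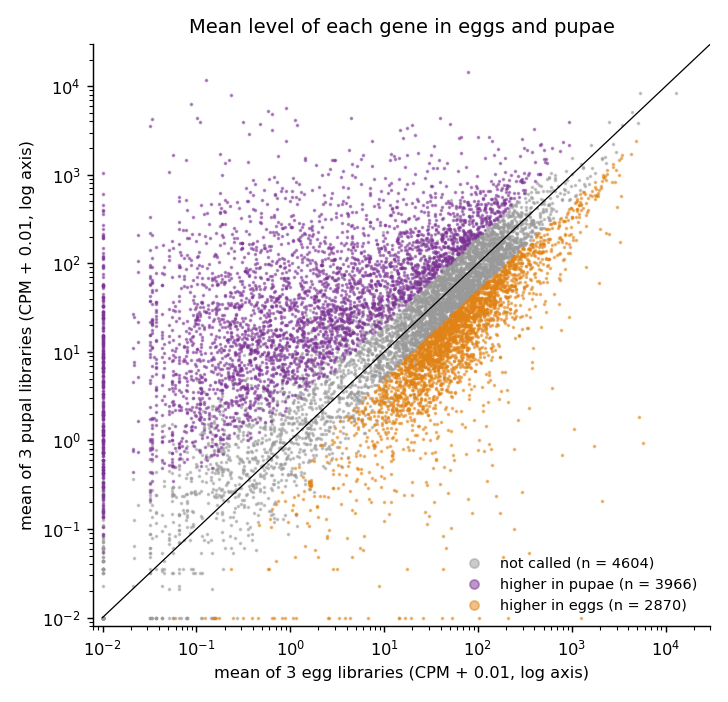
Mean level of each of the 11440 genes tested in eggs (horizontal, CPM, log axis) and pupae (vertical, CPM, log axis), with 1 point per gene a small offset so that genes at 0 sit on the edge, and the line of equal level drawn. Genes called higher in pupae spread from levels near 0 to high levels in eggs, while most genes called higher in eggs lie in a band below the line.

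The levels on the lower side show the same contrast. Genes higher in pupae had a median of 36.3 CPM in pupae and 1.39 CPM in eggs, and 1821 of them, 45.9%, had an egg mean under 1 CPM. Genes higher in eggs had a median of 54.3 CPM in eggs and 13.3 CPM in pupae, and 230 of them, 8.01%, had a pupal mean under 1 CPM. A pupal mean of at least 10 CPM was found for 1663 genes called higher in eggs, 57.9%. Genes higher in eggs were thus mostly genes that pupae also held at a lower level. No count in any egg library was found for 290 genes called higher in pupae, and no count in any pupal library for 32 called higher in eggs.

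Detection gave the same picture without a test. Over all 11862 genes, 7670 reached 1 CPM in all 6 libraries. A set of 1361 genes reached 1 CPM in all pupal libraries and in no egg library, and 127 did the reverse. The genes found in pupae and not in eggs had a median of 12.3 CPM in pupae, and 174 of them had at least 100 CPM there. Those found in eggs and not in pupae had a median of 9.33 CPM in eggs, and 14 had at least 100 CPM. Of the 1361 genes, 1122 (82.4%) reached 1 CPM in all male adult libraries, 476 (35.0%) in all female adult libraries and 468 (34.4%) in all larval libraries, and 101 (7.42%) in none of the 9 other libraries. Over all 11862 genes these shares were 86.6% for male adults, 77.8% for female adults, 77.0% for larvae and 5.93% for none, so that the male, female and larval shares were all below those of all genes, the male one by the least. Of the 127 egg genes, 70 (55.1%) reached 1 CPM in all female adult libraries, 43 (33.9%) in all male adult libraries and 41 (32.3%) in all larval libraries, and 22 (17.3%) in none of the 9.

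The differing genes made up most of each stage's RNA. Genes called higher in pupae took 61.2%, 57.5% and 53.4% of the counts of the pupal libraries and 7.84%, 11.3% and 6.30% of those of the egg libraries. Genes called higher in eggs took 51.2%, 44.6% and 54.6% of the egg libraries and 9.95%, 11.3% and 12.8% of the pupal ones. These shares are given as a description, since the calls come from the same libraries. Pupa replicate 1 held the most RNA of the genes higher in pupae, and egg replicate 2 the least of the genes higher in eggs.

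The authors' mean TPM, a level per length that can be compared between genes, ranks the transcripts within each stage. The top 10 genes of pupae mostly stood low in eggs, while the top 10 of eggs mostly stood high in pupae as well. Of the 10 genes with the highest pupal TPM, 9 were called higher in pupae, 9 were on the authors' pupal list and 6 were under 1 TPM in eggs. Their median rank in eggs was 9818.5 of 11862 genes, and that of the top 100 pupal genes was 3206. Of the 10 genes with the highest egg TPM, 8 were called higher in eggs, but their median rank in pupae was 76 and 2 were under 1 TPM there. The top 100 egg genes had a median rank of 132.5 in pupae. The top 10 lists shared 1 gene and the top 100 lists shared 39. In the top 100 of pupae 59 genes were called higher in pupae and 20 higher in eggs. In the top 100 of eggs 81 were called higher in eggs and 0 higher in pupae. The top 10 held 11.7% of the summed TPM in pupae and 6.86% in eggs. For the top 100 the order was the reverse, with 34.7% in pupae and 39.9% in eggs.

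A single gene on each side was taken for the largest fold and another for the largest difference in the authors' mean TPM. The files do not pair these identifiers with names, and no function is given for them here. CAG9864154.1 had the highest mean TPM of all genes in pupae, 24676 in the authors' deposited table, against 0.229 in eggs. It reached 16654, 10789 and 7865 CPM in the pupal libraries and 0.206, 0 and 0.141 CPM in the egg libraries. Every pupal value lay far above every egg value, with a log2 change of 16.62 ± 1.59 (SE, 3 against 3 libraries; adjusted p = 5.97e-06, edgeR). The fitted change was 15.87 without egg replicate 2 and 17.27 without egg replicate 1. The gene was close to absent elsewhere as well, at 0.146 ± 0.127 CPM in larvae, 0.739 ± 0.312 in male adults and 0.711 ± 0.717 in female adults (SD, n = 3).

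CAG9858814.1 had the largest fold towards pupae, at 5620, 4263 and 2812 CPM in pupae. Eggs held 2 counts in all, both in replicate 3, so that the ratio was 174926 and its exact Poisson bounds, for counting error alone, were 48425 and 1444422 (adjusted p = 7.91e-05, edgeR). The fitted log2 change of 17.14 ranged from 16.45 without egg replicate 2 to 19.60 without egg replicate 3, and the latter is no bound, since the remaining egg libraries hold no count. The gene was also found in male adults at 3.70, 10.3 and 4.46 CPM and in larva replicate 1 at 6.02 CPM, with no count in the other larval libraries. Female adults held 0.193, 0.294 and 0 CPM.

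Among genes higher in eggs, CAG9863732.1 had the largest difference in TPM. Its mean in the authors' deposited table was 7977 TPM in eggs, rank 2 of that stage, and 0.573 TPM in pupae. It reached 1242, 2922 and 2098 CPM in the egg libraries and 0.227, 0.193 and 0.165 CPM in the pupal libraries. It fell by 13.35 ± 0.67 on the log2 scale from eggs to pupae (SE; adjusted p = 2.45e-07, edgeR). In female adults it stood at 0.261 ± 0.195 CPM (SD, n = 3), below male adults at 3.09 ± 0.489. The difference between the sexes passed the test, with a log2 change from males to females of -3.54 (adjusted p = 0.000372, edgeR).

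CAG9857233.1 had the largest fold towards eggs, at 1582, 639 and 1578 CPM in the egg libraries. Pupae held no count, so that it was at least 34844-fold higher in eggs against 3 counts over the pupal libraries (adjusted p = 1.02e-05, edgeR). Larvae held no count, male adults 3 counts and female adults 1. All 4 named genes are on the authors' list for their stage.

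**Figure D2:**
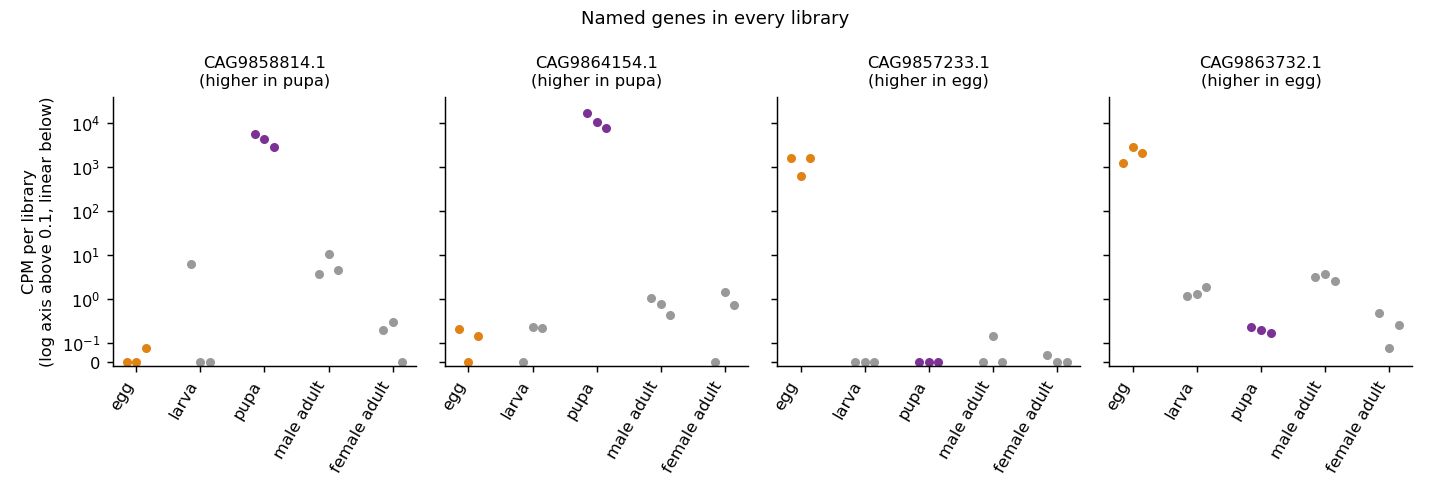
Level of the 4 named genes in each of the 15 libraries (CPM, log axis above 0.1 and linear below, 1 point per library). CAG9858814.1 and CAG9864154.1 reach 2812 CPM or more in each pupal library and at most 10.3 CPM elsewhere, and CAG9857233.1 and CAG9863732.1 lie between 639 and 2922 CPM in eggs and at or below 3.56 CPM in every other library.

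Genes higher in pupae were next followed through the other libraries. In male adults 91.4% to 92.0% of the 3966 genes were found at 1 CPM or more, and library medians ran from 29.4 to 31.6 CPM, beside pupal medians of 32.3 to 41.6 CPM. Over all genes tested 92.0% to 92.6% were at 1 CPM in male adults, so the male share of these genes lay near the background. In female adults 71.1% to 74.4% of them were, beside 82.5% to 84.1% of all genes, at medians of 6.42 to 9.84 CPM. In eggs the share was 44.8% to 56.4%, at medians of 0.668 to 1.74 CPM. Larval libraries differed: replicate 1 had 87.5% of the genes at 1 CPM and a median of 23.9 CPM, while replicate 2 had 71.6% and 10.1 CPM and replicate 3 had 73.0% and 11.9 CPM. Over all genes tested, larva replicate 1 reached 1 CPM in 90.1% and the other larval libraries in 82.3% and 83.4%.

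By the group with the highest mean CPM, the genes higher in pupae fell into 4 classes. Pupae held the highest mean for 1781 of them (44.9%), male adults for 1383 (34.9%), larvae for 723 (18.2%) and female adults for 79 (1.99%). Over all genes tested these shares were 22.9% for pupae, 21.3% for male adults, 17.7% for larvae and 9.38% for female adults, with 28.7% for eggs. Eggs cannot hold the highest mean of genes higher in pupae, which raises the other shares. The larval 18.2% and 17.7% therefore have unlike bases. The genes that peaked in pupae had a median of 93.4 CPM in pupae, 18.7 in male adults, 11.1 in larvae, 7.69 in female adults and 4.19 in eggs. Those that peaked in male adults had medians of 52.1 CPM in males, 18.7 in pupae, 12.7 in larvae, 3.0 in females and 0.349 in eggs. Their larval level lay mostly in 1 library, with medians of 24.4 CPM in larva replicate 1 and 1.05 and 1.47 CPM in the other larval libraries. Those that peaked in larvae had medians of 119.9 CPM in larvae, 18.7 in pupae, 40.9 in males, 26.6 in females and 1.18 in eggs.

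Genes higher in eggs were found in nearly every library. Between 93.9% and 95.5% of the 2870 genes reached 1 CPM in each larval and adult library, beside 82.3% to 92.6% of all genes, and 90.9% to 92.3% did in pupae, beside 90.1% to 90.4%. The medians were 44.5 to 62.6 CPM in eggs, 27.1 to 38.0 in female adults, 16.9 to 20 in larvae, 16.8 to 18.2 in male adults and 12.0 to 14.1 in pupae. Female adults thus stood closest to eggs, with library medians wholly above those of larvae and male adults. The high medians of eggs and the low ones of pupae follow at least in part from the choice of genes on these libraries. Eggs held the highest mean for 2212 of these genes (77.1%), female adults for 374 (13.0%), larvae for 197 (6.86%) and male adults for 87 (3.03%). Over all genes tested the shares were 28.7%, 9.38%, 17.7% and 21.3% in that order. Pupae cannot hold the highest mean of genes higher in eggs, and the choice of genes for eggs over pupae raises the egg share. The 374 genes that peaked in female adults had medians of 36.4 CPM there, 24.7 in eggs, 11.8 in males, 10.1 in larvae and 6.57 in pupae.

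**Figure D3:**
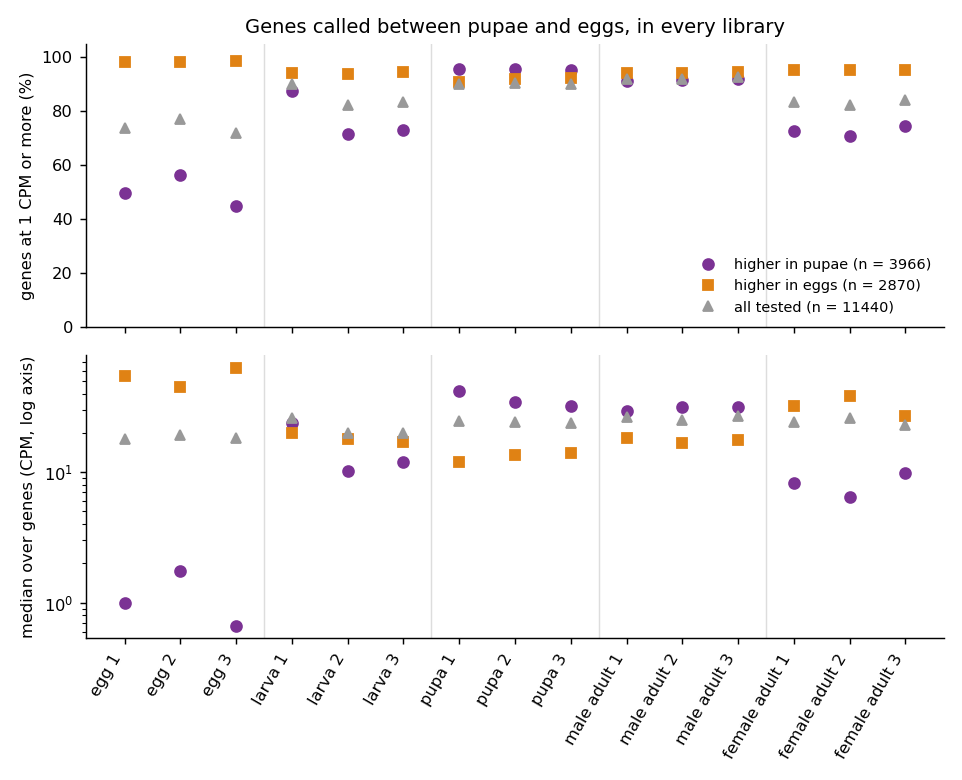
Share of genes at 1 CPM or more (top, percent) and median level over genes (bottom, CPM, log axis) in each of the 15 libraries, for genes called higher in pupae, genes called higher in eggs and all genes tested. The genes higher in pupae have medians of 29.4 to 31.6 CPM in male adults and 6.42 to 9.84 CPM in female adults, and for these genes larva replicate 1 lies above the other larval libraries.

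Adult females and males share no library with pupae and eggs, so the test between them is a separate reading of the same genes, although the fit and scaling are shared. Among genes called higher in pupae, 1269 (32%) were called higher in male adults and 68 (1.71%) higher in female adults. Over all genes tested, these shares were 15.9% and 11.7%. Among genes called higher in eggs the order was the reverse, with 917 (32%) called higher in female adults and 74 (2.58%) higher in male adults. Read from the other side, 69.7% of all 1820 male-higher genes were called higher in pupae, and 68.3% of all 1342 female-higher genes were called higher in eggs. The median log2 change from male to female adults was -1.06 for genes higher in pupae, 0.64 for genes higher in eggs and -0.23 for all genes. With library size alone, 27.1% of genes higher in pupae were male-higher and 43.4% of genes higher in eggs were female-higher, against 12.1% and 18.5% of all genes. The sex difference of these genes is given as counts beside the background, and no test over gene sets was made.

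The male share grew with the fold towards pupae. It was 17.9% of the 1438 genes that were 2-fold to 8-fold higher in pupae, 28.6% of the 1026 at 8-fold to 32-fold and 47.9% of the 1502 at 32-fold or more. The female share fell over the same classes, from 3.27% to 1.27% and 0.533%. Towards eggs the female share was 29.7% of 2373 genes at 2-fold to 8-fold, 44.5% of 373 at 8-fold to 32-fold and 37.9% of 124 at 32-fold or more, so it did not grow steadily. The male share towards eggs was 1.90%, 5.09% and 8.06% in the same order. Genes not called between pupae and eggs were male-higher in 10.4% and female-higher in 7.75% of cases. Genes far apart between pupae and eggs are also nearly absent from one stage, and the part of low level in these shares was not tested.

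**Figure D4:**
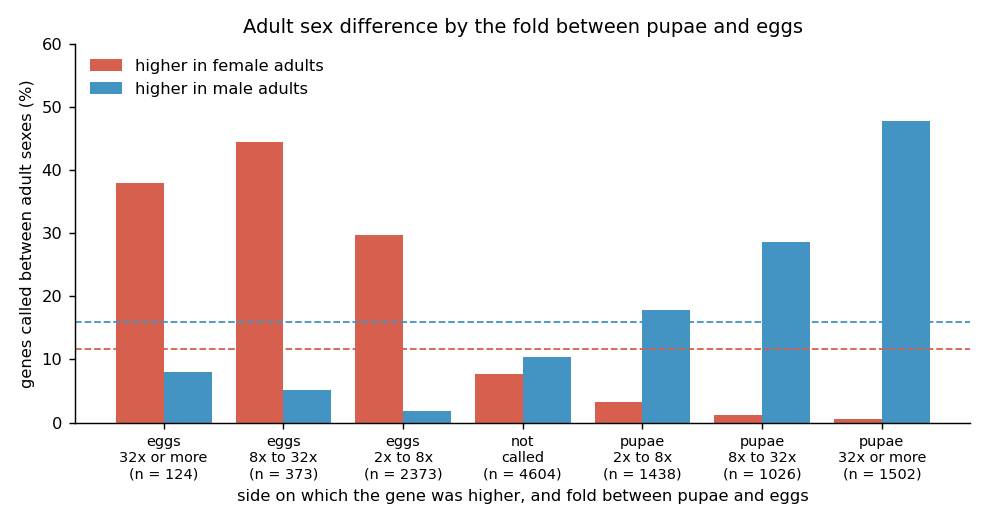
Share of genes called higher in female or in male adults (percent of the genes in each class), by the side and the fold (marked x) of the difference between pupae and eggs. Dashed lines give the shares over all genes tested, 11.7% for females and 15.9% for males, and the male share reaches 47.9% in the class 32-fold or more higher in pupae.

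Next, 719 genes were both at least 32-fold higher in pupae and male-higher. In the pupal libraries 96.1% to 97.4% of them were at 1 CPM or above, at medians of 41.7, 22.8 and 21.7 CPM in replicates 1 to 3. In eggs 8.48% to 12.1% did, at medians of 0.0668 to 0.123 CPM. Pupa replicate 1 lay above the other pupal libraries. In larvae they followed one library, with 93% at 1 CPM in replicate 1 and 22.9% and 23.4% in replicates 2 and 3. These genes took 9.91%, 6.27% and 5.99% of the pupal counts. The sex of the pupae in each library is not known, and its part in the spread was not tested.

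Another 775 genes were at least 32-fold higher in pupae with no sex difference called. They took a larger part of the pupal libraries, 24.1%, 22.9% and 18.9% of counts, and 13.8% to 18.2% of the larval ones. Their medians were 39.7 to 53.7 CPM in pupae, 7.78 to 13.0 in male adults, 3.90 to 7.37 in female adults and 5.74 to 6.64 in larvae. Larva replicate 1 did not stand apart for these genes, with 68.9% at 1 CPM against 65.5% and 67.5%. Pupae held the highest mean for 452 of them, larvae for 169 and male adults for 147.

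At the egg side, 213 genes were at least 8-fold higher in eggs and female-higher. They reached medians of 75.7, 46.6 and 82.2 CPM in eggs and 34.8, 45.8 and 24.8 CPM in female adults. In male adults their medians were 4.79 to 4.91 CPM and in pupae 3.18 to 5.15 CPM. A further 255 genes were at least 8-fold higher in eggs with no sex difference called, at medians of 19.3 to 33.8 CPM in eggs, 6.30 to 9.12 in female adults, 5.22 to 6.04 in male adults and 1.14 to 1.52 in pupae. Eggs held the highest mean for 155 of the 213 genes and 188 of the 255.

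The test of larvae against adults, the sexes weighted equally, also shares no library with the comparison. Among genes higher in pupae, 639 (16.1%) were higher in larvae and 447 (11.3%) higher in adults, beside 12.7% and 11.3% of all genes tested, so the shares lay near the background. Among genes higher in eggs, 184 (6.41%) were higher in larvae and 402 (14.0%) higher in adults. Without larva replicate 1, 956 genes higher in pupae (23.0%) were called higher in adults, against 17.5% of all genes. In that fit 611 of the genes higher in pupae (14.7%) were higher in larvae, against 11.6%, which turns the order of the counts. For genes higher in eggs, leaving out that library gave 158 higher in larvae (5.41%) and 504 higher in adults (17.3%). The shares of all genes were then 11.6% and 17.5%, so the adult share of genes higher in eggs lay near the background. With library size alone, the larval counts fell to 351 of the genes higher in pupae (10.2%) and 93 of those higher in eggs (2.60%). The adult counts were 632 (18.4%) and 1236 (34.6%). Over all genes, that scaling gave 7.14% higher in larvae and 24.4% higher in adults. For genes higher in pupae the order of the counts turned here too, though their larval share stayed above that of all genes.

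The authors deposited lists of genes specific to each stage or sex by their own reading, chosen on these same libraries, so that the counts below are no independent evidence of direction. Of the 480 pupal genes tested, 471 were called higher in pupae than eggs and 0 higher in eggs, beside 34.7% and 25.1% of all genes. Their median was 170.9 CPM in pupae and 1.04 CPM in eggs. Of the 156 egg genes tested, 150 were called higher in eggs and 0 higher in pupae, with medians of 67.4 and 2.81 CPM. Most calls lay outside these lists: 3495 genes higher in pupae were not on the pupal list and 2720 higher in eggs were not on the egg list. The genes off the pupal list took 38.3%, 36.3% and 35.4% of pupal counts, and those on it 23.0%, 21.3% and 18.1%. Genes off the egg list took 39.6% to 48.2% of egg counts, and those on it 4.95% to 6.38%.

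The sex shares differed between listed and unlisted genes. Of the 3495 unlisted genes higher in pupae 34.7% were male-higher, and of the 471 listed ones 12.1% were. Of the 2720 unlisted genes higher in eggs 33% were female-higher, and of the 150 listed ones 12.7% were female-higher and 14.0% male-higher. Over all genes tested 15.9% were male-higher and 11.7% female-higher, so these listed shares lay nearer the background than the unlisted ones. Listed genes were low in adults. Medians in males and females were 1.84 and 0.975 CPM for the 471 genes and 2.04 and 1.73 CPM for the 150. The part of this low level was not tested. All 471 listed genes had their highest mean in pupae and all 150 in eggs, as against 1310 of the 3495 and 2062 of the 2720. How the lists were chosen is not stated here, and its part in these shares was not tested.

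The lists for the other groups held genes that were low in both pupae and eggs. Of 222 larval genes tested, 81 were called higher in pupae (36.5%) and 4 higher in eggs (1.80%), at medians of 0.597 CPM in pupae and 0.186 CPM in eggs. Of 169 male genes, 54 were called higher in pupae (32%) and 6 higher in eggs (3.55%), at medians of 0.323 and 0.0634 CPM. Both shares towards pupae lay near the 34.7% of all genes, and both towards eggs lay below the 25.1% of all genes. The male count was 31 without egg replicate 2 and 30 without egg replicate 3. Of 86 female genes, 8 were called higher in pupae (9.30%) and 32 higher in eggs (37.2%), at medians of 1.03 and 4.39 CPM. The female count towards pupae was 13 without egg replicate 1 and 5 without pupa replicate 1.

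Gene length was recovered up to a common factor by setting the authors' TPM beside the counts, and is given relative to the median gene tested. The recovered length accounted for 93% of group values above 1 TPM within 1%. Length differed between the fold classes. The median relative length was 0.756 for genes 32-fold or more higher in pupae, 1.06 at 8-fold to 32-fold and 1.26 at 2-fold to 8-fold. Towards eggs it was 0.550 at 32-fold or more, 0.738 at 8-fold to 32-fold and 0.913 at 2-fold to 8-fold. Genes not called had a median of 1.08. The classes overlapped widely, with quartiles of 0.477 and 1.17 for the class 32-fold or more towards pupae. The named genes lay at 0.427 for CAG9864154.1, 0.716 for CAG9858814.1, 0.292 for CAG9863732.1 and 0.298 for CAG9857233.1.

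**Figure D5:**
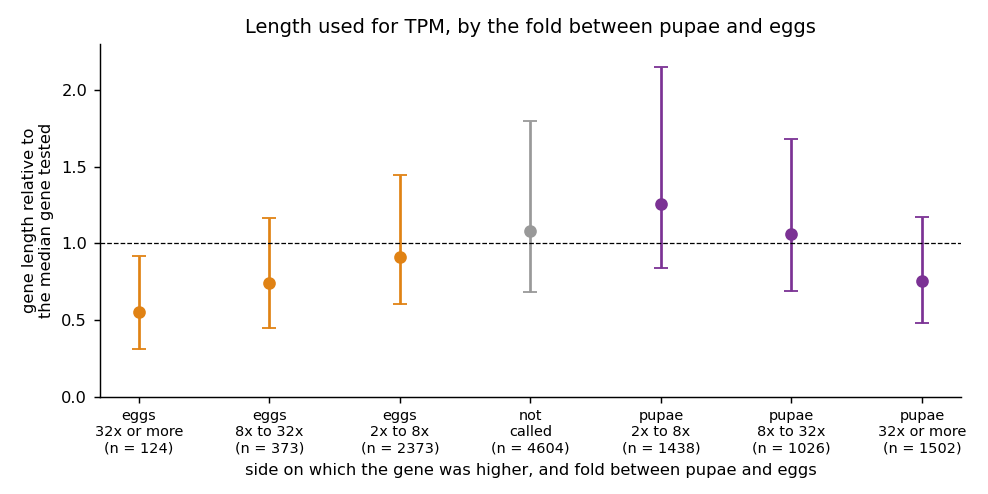
Gene length as used for the authors' TPM, relative to the median gene tested (vertical), by the side and the fold (marked x) of the difference between pupae and eggs. Points are medians and bars run from the lower to the upper quartile; medians fall from 1.26 to 0.756 over the classes towards pupae and from 0.913 to 0.550 over those towards eggs.

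A gene that was not called is not shown to be alike in the stages. By the 95% interval of the log2 change in limma voom, 1530 genes, 13.4% of those tested, lay within 2-fold between pupae and eggs, and 3074 further uncalled genes did not. The 1530 genes had medians of 64.5 CPM in pupae and 68.2 CPM in eggs, took 17.2 ± 1.30% of pupal and 23.3 ± 1.38% of egg counts (SD, n = 3), and had a median relative length of 1.42. Of them 3.01% were male-higher and 8.17% female-higher. The 3074 genes with wider intervals stood lower, at medians of 12.2 and 10.8 CPM. The count of 1530 genes within 2-fold became 1234 with library size alone, 1387 with only the pupal and egg libraries in the fit and 1192 without egg replicate 2.

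Some genes were high in both stages that do not feed. In 372 genes the egg mean and the pupal mean were each at least 2 times every other group mean and at least 1 CPM. Of these, 114 were called higher in pupae (30.6%) and 43 higher in eggs (11.6%), beside 34.7% and 25.1% of all genes tested, at medians of 94.3 CPM in pupae and 46.1 CPM in eggs.

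Replicates of eggs spread more than those of pupae. Over genes at 10 CPM or more in the stage, the SD of log2(CPM + 1) over the 3 libraries had a median of 0.329 in eggs (6706 genes) and 0.161 in pupae (7728 genes). An SD above 1 was found for 485 genes in eggs, 7.23%, and for 58 in pupae, 0.751%. In eggs the library that was most often highest differed between the 2 sets of called genes. The matching shares over all genes tested were not computed. Of the 3676 genes higher in pupae with any egg count, egg replicate 2 was the highest egg library for 1844 and egg replicate 3 for 506. Of the 2870 genes higher in eggs, egg replicate 3 was the highest for 1826 and egg replicate 2 for 210, and egg replicate 2 lay below the mean of the other egg libraries by a median of -0.39 on the log2 scale. Pupae spread less, and their highest library differed between the sets as well. Of the genes higher in pupae, pupa replicate 1 was the highest pupal library for 2037 of 3966, and pupa replicate 3 for 716. Of the 2838 genes higher in eggs with any pupal count, pupa replicate 3 was the highest for 1560 and pupa replicate 1 for 342. The TMM factor of egg replicate 2 was 1.29 against 1.04 and 1.07 in the other egg libraries, and the part of scaling in these orders was not tested. Without egg replicate 2, 3800 genes were called higher in pupae and 3264 higher in eggs.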

How the data were processed

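The authors deposited read counts per gene for 15 libraries, not normalized, and a table of TPM averaged over the libraries of each group, which gives no spread. Another deposited table lists gene identifiers per stage or sex. Per the submitters' processing notes, fastp, HISAT2 and featureCounts were used. Versions, genome build and strandedness: not given in the sources used here. Per the labels' protocols, TRIzol RNA went into Illumina TruSeq libraries. Columns were matched to samples by library name.

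Counts were filtered with filterByExpr (11440 of 11862 genes kept), scaled by TMM and tested with edgeR 4.0.16 (quasi-likelihood, robust, R 4.3.3) in 1 model of all 15 libraries in 5 groups. Calls needed an adjusted p under 0.05 and a log2 change of at least 1. Folds against a stage with no count are lower bounds against 3 counts over its libraries. SEs are the change divided by the root of the F value. Intervals came from limma 3.58.1 and an alternative test from DESeq2 1.42.0. The log2 offset for replicate spread was 1 CPM.

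In simulated counts for pupae against eggs, with 11385 genes tested, 13.4% of 2-fold, 47.8% of 4-fold and 80.3% of 8-fold changes were called in the right direction, and 5 unchanged genes were called. Only 67, 67 and 66 genes above a minimum count were changed, about evenly in both directions, and all others were level between the stages. The data hold far more changed genes, so these rates need not hold there, and the 5 calls do not speak of scaling. Calls also needed a fitted change of at least 2-fold, which limits the recovery of 2-fold changes. The Poisson interval and the lower bounds cover counting error only.

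Named genes were, on each side, the called gene with the largest fold among those without overlap and at 10 CPM or more, and the one with the largest difference in mean TPM. The comparison, lists and rules were chosen with earlier results of these data known. The descriptions of length, highest group, fold class, top TPM, replicate spread, identifier order and near-identical counts were added after the data were seen.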

Additional observations from a re-analysis of the deposited data

How the results depend on the processing

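Of 449 alternative values, 426 kept to their rule. Counts had to stay within 1.5 times the main count, medians and shares within the replicate spread, and named genes had to stay called. Some values could hardly break their rule. Named genes were picked for their size of change, and the authors chose their lists on these libraries. A turned order of counts could also keep to the rule. Among the 449 values no median of called genes and no fold of a named gene changed sign. The median log2 change of all genes, which is not among them, went from 0.30 to -0.04 with library size alone. The order of paired counts turned in some settings. Library size alone gave 3426 calls towards pupae and 3571 towards eggs. Among genes higher in pupae, larva-higher and adult-higher genes numbered 351 (10.2%) and 632 (18.4%) with library size alone. Without larva replicate 1 they numbered 611 (14.7%) and 956 (23.0%). The larval and adult shares of all genes were 7.14% and 24.4% in the former setting and 11.6% and 17.5% in the latter. Over the libraries left out in turn, larva replicate 1 included, genes called higher in pupae numbered 3478 to 4151 and higher in eggs 2685 to 3264. Changes of 8-fold or more numbered 2156 to 2627 and 422 to 637. The median log2 change towards pupae ranged from 3.88 to 4.49, the highest without egg replicate 2. A minimum log2 change of 2 left 1288 genes higher in eggs. With only the pupal and egg libraries in the fit, genes called higher in pupae took 53.1% of pupal counts. At a threshold of 5 CPM, 441 genes were found in eggs and not in pupae. With library size alone, 1549 genes higher in eggs were female-higher (43.4%), 93 were larva-higher (2.60%) and 1236 adult-higher (34.6%). The shares of all genes were then 18.5%, 7.14% and 24.4%. DESeq2 gave 1071 genes higher in pupae and in larvae, 24.9% of those higher in pupae, beside 17.4% of all genes. Genes higher in pupae and in adults ranged from 396 to 956 over libraries left out, and those higher in pupae and in larvae from 580 to 726.

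For the authors' lists, larval genes higher in eggs numbered 2 with at least 10 counts in 3 of the 6 libraries, 1 with limma voom and 1 to 4 over libraries left out. Male genes higher in eggs numbered 3 with that filter, 2 with limma voom, 3 with only the pupal and egg libraries and 3 to 9 over libraries left out, and male genes higher in pupae 30 to 69. Female genes higher in pupae ranged from 5 to 13, and those higher in eggs numbered 21 with limma voom. The cause was not tested.

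Replicate numbers are shared, but no label ties samples of the same number, and deviations of same-numbered egg and pupal libraries correlated at 0.09, 0.03 and 0.07, so the numbers were not taken as a pairing, though each library correlated best with its own number. With the replicate block, 3922 genes were called higher in pupae and 2830 higher in eggs.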

Other observations

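A group of 12 genes had nearly the same counts in every one of the 15 libraries, with a gap of at most 8 counts between any of them in any library, and relative lengths of 0.682 to 0.693. All 12 were called higher in eggs, at 1.57 to 1.67 CPM in eggs and 0.271 to 0.346 CPM in pupae, with log2 changes of -2.56 to -2.19 (largest adjusted p = 0.009, edgeR). Another 2 pairs behaved likewise and were also called higher in eggs. These 16 genes were the only ones among 11206 with at least 200 counts that agreed within counting error (a chi-square per library under 1) and within 2% of length. Whether they are near-identical copies cannot be told from these files, so these calls are uncertain as single genes. The groups were described after their values were seen.

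Genes with consecutive identifier numbers shared a direction more often than genes at large. Among genes at least 32-fold higher in pupae whose next number was tested, 364 of 1169 (31.1%) were followed by another such gene, beside 13.0% over all 9258 genes with a tested next number. For the authors' pupal list 82 of 364 (22.5%) were, beside 4.14%. For genes at least 8-fold higher in eggs 35 of 423 (8.27%) were, beside 4.45%. The longest run on the pupal list held 12 consecutive numbers, with pupal means of 5.62 to 6262 CPM, egg means of 0 to 51.6 CPM, a highest mean of 1.5 CPM in larvae, 1.21 CPM in male adults and 0.972 CPM in female adults, and relative lengths of 0.366 to 1.52. The longest run of genes at least 32-fold higher in pupae held 10, all on the pupal list. Whether the numbers follow the order of genes in the genome is unknown, and no test was made of these shares.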
